A study of Homo sapiens with 6 samples.

Results

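The genes described here carry out antigen presentation by MHC class I: the heavy chains HLA-B, HLA-C, HLA-E and HLA-F, the light chain B2M, the peptide transporter subunits TAP1 and TAP2, the loading factor TAPBP (tapasin) and the transcriptional activator NLRC5. They were chosen by symbol in the deposited gene table, where all 9 had a row among 58825 genes, and 8 had enough counts to be tested. HLA-F fell below the count filter. The libraries came from MDA-MB-231, a human cell line from a triple-negative breast cancer, grown for 24 h either with the vehicle DMSO (0 µM drug, 3 libraries) or with DSF/Cu, disulfiram plus copper, at 0.2 µM (3 libraries). Disulfiram is an aldehyde dehydrogenase inhibitor given for alcohol dependence, and its metabolite forms a complex with copper. Each library pooled 3 wells, and the labels do not say that repeats were separate cultures, so p-values measure the spread between these libraries, which may be technical. The series has 1 line, 1 dose and 1 time, with neither disulfiram alone nor copper alone.

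A class I molecule is a polymorphic heavy chain folded around B2M and a short peptide. Peptides are cut from cytosolic proteins by the proteasome, carried into the endoplasmic reticulum by the TAP1-TAP2 heterodimer, trimmed by aminopeptidases and loaded with the help of tapasin, calreticulin and the disulfide isomerase PDIA3. HLA-B and HLA-C are classical heavy chains read by T cells and by killer-cell receptors, HLA-E binds leader peptides of other heavy chains and is read by NKG2A on NK cells, and HLA-F is a nonclassical chain. NLRC5, which interferon gamma induces, is recruited to class I, B2M and TAP1 promoters by factors that sit on their SXY module.

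Library totals ranged from 55563223 to 70883177 counts. Pearson's r of log2 CPM (counts per unit of library size) across genes was 0.9694 to 0.9777 within groups and 0.9339 to 0.941 between them (genes are not independent replicates). Levels below are CPM after TMM scaling, a method that sets libraries to a common scale by trimmed gene ratios, and the scaling factors were 1.06 to 1.076 in DMSO and 0.9161 to 0.9522 after DSF/Cu. The median log2 change of all tested genes was 0.00227 under TMM, -0.182 when libraries were scaled by total counts and -0.141 with sum-scaled FPKM (scaled so that every library has the same sum), so a small change depends on the scaling. The line's own genes were present, with VIM at 3297, CD44 at 294 and EGFR at 291 CPM in DMSO, ESR1 was at 0.105 CPM and CDH1 at 0.0202. With PGR and ERBB2, these last genes form a list of 4 that summed to 66.4 to 75.3 CPM in DMSO and 36.6 to 42.6 after DSF/Cu. ERBB2 was called lower after DSF/Cu (log2 change -0.81, called in all 15 alternatives). Of 6 line genes, 5 were called lower and 0 higher, against 16.8% lower and 18.5% higher of all tested genes. VIM and EGFR were called lower in 12 of 15 alternatives each. Among 14 leukocyte genes, CD3D, CD3E, MS4A1 and LYZ had no count in any library, and the list summed to 95.8 to 183 CPM in DMSO and 127 to 175 after DSF/Cu, nearly all from CD68, which held 149 ± 47.6 and 142 ± 26.6 CPM (SD, n = 3 per group). CD14, a monocyte receptor, rose from 0.264 ± 0.167 to 1.62 ± 0.564 CPM. ITGAM, an integrin of myeloid cells, was not counted in DMSO and gave 121, 33 and 29 counts with DSF/Cu. With the DMSO group set to 3 counts this would be 76.4-fold higher, a limit for counting error only. The leukocyte genes PTPRC and ITGAX also had 0 counts in DMSO, against 12, 0 and 2 and 15, 0 and 8 after DSF/Cu. NKG7 and PLIN1 had none after DSF/Cu and at most 8 counts in a DMSO library. The labels' extraction text speaks of adipose tissue, and ADIPOQ, the adipocyte hormone, had 0 counts in all 6 libraries, as had DCN, LUM and CDH5.

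DSF/Cu was compared with DMSO for each gene. HLA-C and B2M were higher after DSF/Cu, TAP2 was lower, and HLA-B, HLA-E, TAP1, TAPBP and NLRC5 were not called. By edgeR's quasi-likelihood test, 2 of the 8 were called higher and 1 lower at a Benjamini-Hochberg adjusted p under 0.05, where 35.2% of all 18229 tested genes were called (18.5% higher and 16.8% lower). The share of called members, 3 of 8, was thus close to that of all genes. The median log2 change of the 8 was 0.04. In 3 of 8 (HLA-C, B2M and TAP2) the groups did not overlap, against 51.2% of all tested genes (25.2% with DSF/Cu below DMSO). In bulk RNA, fewer cells of a kind and less RNA per cell cannot be told apart.

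**Figure D1:**
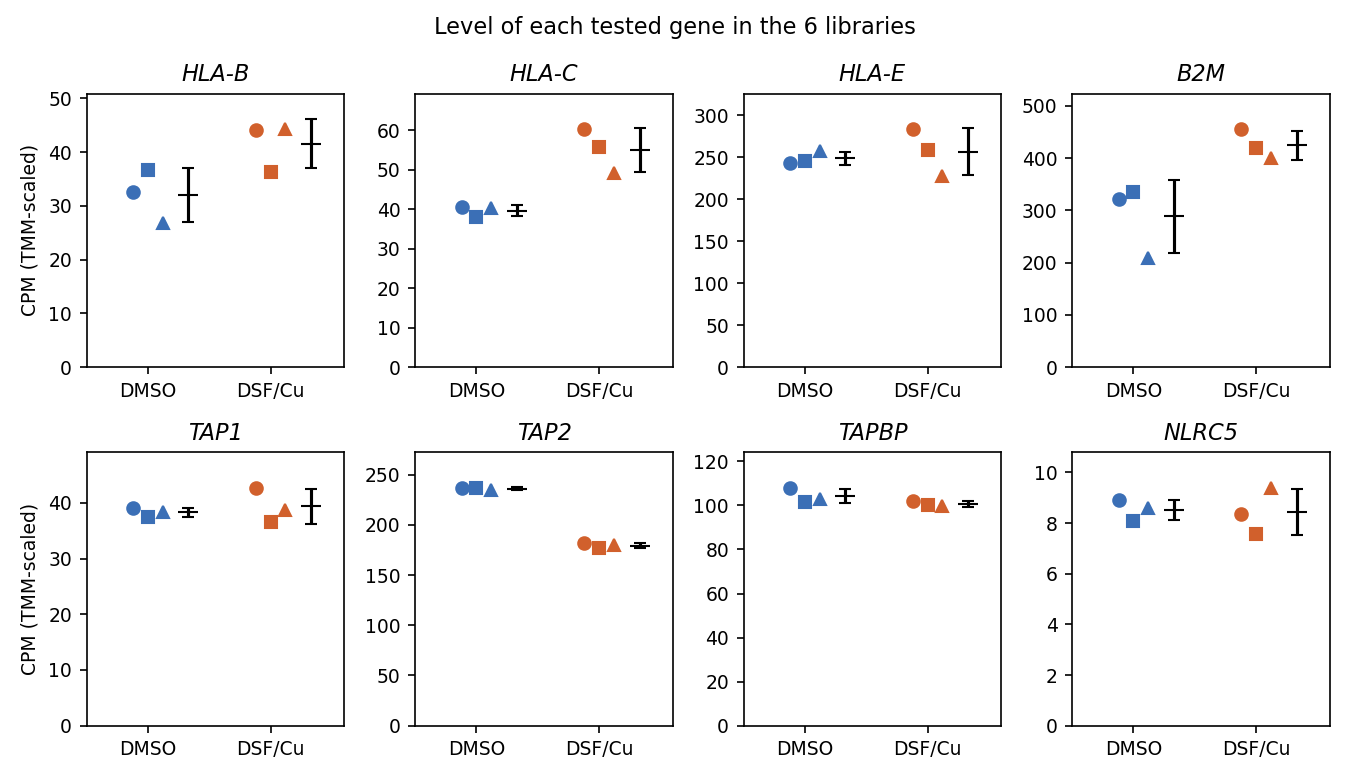
Level of the 8 tested genes in each library, as TMM-scaled CPM on axes that start at 0. Circles, squares and triangles are replicates 1, 2 and 3 of DMSO (blue) and DSF/Cu (orange), and the black bar beside each group is its mean with SD (n = 3). TAP2 stands at 235 to 237 CPM in DMSO and 177 to 182 after DSF/Cu, and the low triangle of B2M in DMSO is replicate 3 at 209 CPM.

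The promoters of these genes share short sequence elements that are the textbook route of class I control, so they are shown for the genes compared below. RefSeq promoters on GRCh38.p14 matched 7 of the 9 genes (HLA-B, HLA-C, HLA-F, B2M, TAP1, TAP2 and TAPBP). Each line gives the 250 bases before the RefSeq transcription start, 5′ to 3′ on the gene's strand, and capitals mark matches to the motifs listed after them. These are reference sequences, and the alleles of this line may differ from them.
HLA-B (chr6:31357180-31357429, minus strand): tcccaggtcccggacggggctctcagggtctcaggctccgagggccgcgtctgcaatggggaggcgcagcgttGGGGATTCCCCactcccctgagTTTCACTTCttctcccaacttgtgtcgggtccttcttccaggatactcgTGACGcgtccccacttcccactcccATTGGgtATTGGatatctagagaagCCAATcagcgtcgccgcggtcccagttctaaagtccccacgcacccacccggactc
HLA-C (chr6:31272093-31272342, minus strand): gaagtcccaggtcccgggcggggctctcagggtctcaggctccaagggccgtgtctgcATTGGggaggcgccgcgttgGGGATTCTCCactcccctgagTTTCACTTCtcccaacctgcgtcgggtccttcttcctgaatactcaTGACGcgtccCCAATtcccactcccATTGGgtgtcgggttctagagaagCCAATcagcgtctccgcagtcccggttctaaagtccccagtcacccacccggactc
B2M (chr15:44711267-44711516, plus strand): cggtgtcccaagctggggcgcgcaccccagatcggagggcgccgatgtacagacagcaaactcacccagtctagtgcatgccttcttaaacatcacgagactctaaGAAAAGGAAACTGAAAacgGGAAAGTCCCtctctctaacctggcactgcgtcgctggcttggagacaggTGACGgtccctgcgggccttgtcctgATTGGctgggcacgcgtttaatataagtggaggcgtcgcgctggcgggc
TAP1 (chr6:32853705-32853954, minus strand): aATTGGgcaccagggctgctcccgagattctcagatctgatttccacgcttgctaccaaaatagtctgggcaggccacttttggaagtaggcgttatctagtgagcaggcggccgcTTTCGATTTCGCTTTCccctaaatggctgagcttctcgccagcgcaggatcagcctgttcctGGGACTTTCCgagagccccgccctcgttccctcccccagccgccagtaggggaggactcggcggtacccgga
TAP2 (chr6:32838740-32838989, minus strand): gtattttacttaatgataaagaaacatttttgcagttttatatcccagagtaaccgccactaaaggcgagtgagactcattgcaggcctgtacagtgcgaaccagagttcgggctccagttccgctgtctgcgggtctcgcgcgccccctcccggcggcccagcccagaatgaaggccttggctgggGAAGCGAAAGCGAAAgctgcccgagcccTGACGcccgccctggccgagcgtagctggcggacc
TAPBP (chr6:33314079-33314328, minus strand): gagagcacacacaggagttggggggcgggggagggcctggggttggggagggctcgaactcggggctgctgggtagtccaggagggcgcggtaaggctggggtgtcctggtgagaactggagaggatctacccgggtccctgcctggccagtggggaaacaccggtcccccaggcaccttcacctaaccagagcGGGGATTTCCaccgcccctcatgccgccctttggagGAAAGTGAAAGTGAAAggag

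Motifs were searched on both strands in 300 bases, from 250 before to 50 after the start. The interferon-stimulated response element (ISRE), bound by IRF factors, was taken as GAA or GAAA followed by any 2 bases and GAAA, and all 7 promoters held at least 1 of these, against 10.6% of 35116 RefSeq promoters. HLA-B, HLA-C and TAP2 held the shorter form (7.66% of all promoters), and B2M, HLA-F, TAP1, TAP2 and TAPBP the longer (3.57%). In TAP2 the forms overlap each other, as do the 2 longer matches in B2M, in TAP1 and in TAPBP. The ISRE match began 155 bases before the start in HLA-B, 151 in HLA-C and 144 in B2M, 134 in TAP1, 63 in TAP2 and 20 in TAPBP. A match to the NF-kB consensus was found in HLA-B, HLA-C, B2M, TAP1 and TAPBP (5.91% of all promoters), with 2 overlapping matches in HLA-B. TGACG, the core of the X2 box where CREB and ATF1 bind, was found in HLA-B, HLA-C, B2M and TAP2 (24.6%), and CCAAT, the Y box of NF-Y, in HLA-B, HLA-C, HLA-F, B2M and TAP1 (34.6%). No member held a perfect heat shock element (GAA, TTC and GAA in turn with 2 bases between each; 0.49% of all promoters). TAP1 held a further NF-kB match from 23 to 32 bases after its start, which is not printed. The gene starts of the deposited table lay 659 bases from the RefSeq start in HLA-F, 309 in TAPBP, 274 in TAP1 and at most 30 in the other 4. A match is a string of letters and not a measured binding site. HLA-C, B2M and TAP2, the genes that were called, and HLA-B and TAP1, which were not, all held an ISRE match.

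The heavy chains lie on chromosome 6 (table coordinates match GRCh38). HLA-C (ENSG00000204525, chr6:31268749-31272105, minus strand) stood at 40.6, 38.0 and 40.4 CPM in the DMSO libraries and at 60.3, 55.8 and 49.3 after DSF/Cu. All DSF/Cu libraries were above all DMSO libraries. It rose 1.39-fold, a log2 change of 0.47 ± 0.09 (SE, 95% interval 0.26 to 0.69, edgeR adjusted p = 0.00756). This call held in 14 of 15 alternatives and was lost with sum-scaled FPKM (0.169, limma adjusted p = 0.109).

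HLA-B (ENSG00000234745, chr6:31269491-31357179, minus strand) held 32.5, 36.8 and 26.9 CPM in DMSO and 44.1, 36.2 and 44.3 after DSF/Cu. DSF/Cu replicate 2 lay below DMSO replicate 2, so the groups overlap. Its log2 change was 0.37 ± 0.14 (interval 0.04 to 0.71) and was not called (edgeR adjusted p = 0.0808), whereas DESeq2 called it higher (0.386, adjusted p = 0.0121). The deposited HLA-B model is long and runs across HLA-C on the same strand for 2615 bases, of which 35 are exonic in both. Heavy chain genes are close copies, so reads may have been split between them, and the values of HLA-B and HLA-C are uncertain to that extent.

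HLA-E (ENSG00000204592, chr6:30489509-30494194, plus strand) was the most counted heavy chain, with 243, 246 and 258 CPM in DMSO and 284, 259 and 228 after DSF/Cu. The DSF/Cu libraries lay on both sides of the DMSO libraries. The log2 change of 0.04 ± 0.08 (interval -0.16 to 0.24, edgeR adjusted p = 0.720) was not called, and its sign was negative under total-count scaling (-0.142) and in every FPKM fit. With sum-scaled FPKM it was called lower (-0.248, limma adjusted p = 0.0240). HLA-F (ENSG00000204642, chr6:29722775-29729351, plus strand) had 8, 0 and 11 counts in DMSO and 0, 8 and 11 after DSF/Cu. In the libraries with 0 counts, 3 counts would be 0.0448 CPM (DMSO replicate 2) and 0.0532 CPM (DSF/Cu replicate 1), a limit for counting error only. No difference was detectable at this depth.

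Summed over the 4 genes, the heavy chains came to 321 ± 4.33 CPM in DMSO and to 354 ± 33.0 with DSF/Cu (SD, n = 3). The sums were 316, 321 and 325 against 388, 351 and 322, so the ranges overlap. Within the sum the makeup differed, and this share does not depend on library scaling. HLA-E made up 76.8, 76.7 and 79.3% of heavy chain counts in DMSO and 73.1, 73.7 and 70.9% after DSF/Cu. HLA-C made up 12.8, 11.8 and 12.4% in DMSO and 15.5, 15.9 and 15.3% after DSF/Cu. Neither share overlapped between groups, but both are parts of the same sum and so not separate results. Among single tested genes, 51.2% did not overlap. The possible split of reads between heavy chain genes applies to these shares too. HLA-B contributed 10.3, 11.5 and 8.26% and then 11.4, 10.3 and 13.7%, with overlap.

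B2M (ENSG00000166710, chr15:44711487-44718877, plus strand), the light chain shared by class I and class I-like molecules, held 321, 336 and 209 CPM in DMSO and 455, 419 and 401 after DSF/Cu. DMSO replicate 3 was far below the other DMSO libraries, and all DSF/Cu libraries were above all DMSO libraries. B2M rose 1.47-fold, with a log2 change of 0.56 ± 0.18 (interval 0.14 to 0.98, edgeR adjusted p = 0.0485). This call was close to the threshold and held in 5 of 15 alternatives. Without DMSO replicate 3 the change was 0.367 (adjusted p = 0.0173). The call was lost when DMSO replicate 1 was left out (0.638, adjusted p = 0.0710) and without DSF/Cu replicate 1 (0.509, 0.126), 2 (0.574, 0.0996) or 3 (0.604, 0.0819). It was not called under total-count scaling either (0.371, edgeR adjusted p = 0.139), and in the FPKM fits the change was 0.290 to 0.416 with limma adjusted p from 0.125 to 0.265. TRIM69, the next tested protein-coding gene 10111 bases downstream, fell from 11.2 ± 0.901 to 6.55 ± 0.493 CPM (SD, n = 3 per group), and PATL2, upstream of B2M on the other strand, was not called.

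The transporter subunits differed from each other. TAP2 (ENSG00000204267, chr6:32821833-32838739, minus strand) held 237, 237 and 235 CPM in DMSO and 182, 177 and 180 after DSF/Cu. Libraries of a group lay within a few CPM of each other and the groups were far apart. TAP2 was 24.1% lower (1.32-fold), a log2 change of -0.40 ± 0.04 (interval -0.50 to -0.29, edgeR adjusted p = 0.00089), and it was called lower in all 15 alternatives, with changes from -0.665 to -0.373. A transcript model on the same strand, AL669918, shares 32.3% of TAP2's exonic bases but had a mean of 22.2 counts per library against 13232 for TAP2.

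TAP1 (ENSG00000168394, chr6:32845209-32853978, minus strand) held 39.0, 37.5 and 38.3 CPM in DMSO and 42.7, 36.6 and 38.7 after DSF/Cu. The groups overlap, and DSF/Cu replicate 1 was the highest of the 6. The log2 change of 0.04 ± 0.08 (interval -0.15 to 0.23, edgeR adjusted p = 0.738) was not called; its sign turned under total-count scaling (-0.147), and with sum-scaled FPKM TAP1 was called lower (-0.222, limma adjusted p = 0.0316). TAP1 overlaps PSMB8-AS1 on the other strand over 456 exonic bases (9.49% of its exons). The deposited PSMB9 model, also on the other strand, overlaps TAP1 over 8770 bases, of which 0 are exonic in both. No source used here says whether strand was used in counting.

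The ratio of TAP1 to TAP2 within a library needs no scaling between libraries. By FPKM, which is per length, it was 0.219, 0.210 and 0.217 in DMSO and 0.312, 0.275 and 0.286 after DSF/Cu. The lowest DSF/Cu ratio was above the highest DMSO ratio. The log2 difference was 0.43, with a two-sided exact permutation p = 0.1, the smallest that 3 against 3 libraries allow (0.157 adjusted over the 11 ratios tested), so this design cannot pass 0.05.

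TAPBP (ENSG00000231925, chr6:33299694-33314387, minus strand), which bridges empty heavy chains to TAP, held 108, 102 and 103 CPM in DMSO and 102, 100 and 99.8 after DSF/Cu. The highest DSF/Cu library lay above the lowest DMSO library. The log2 change was -0.05 ± 0.05 (interval -0.17 to 0.07, edgeR adjusted p = 0.505). This gene was called lower under total-count scaling (-0.236, adjusted p = 0.0140) and in the 4 FPKM fits (-0.322 to -0.208). Its neighbour RGL2, whose model ends 752 bases away, rose by 0.29 ± 0.07 (log2, SE), and ZBTB22, 19 bases away on the other side, was not called.

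NLRC5 (ENSG00000140853, chr16:56989485-57083524, plus strand) was low, with 8.89, 8.10 and 8.58 CPM in DMSO and 8.35, 7.57 and 9.40 after DSF/Cu. The DSF/Cu values ran from below the lowest to above the highest DMSO value. The log2 change was -0.01 ± 0.13 (interval -0.32 to 0.29, edgeR adjusted p = 0.942) and was not called. CETP, a plasma lipid transfer protein gene 5640 bases upstream of NLRC5, rose from counts of 4, 0 and 4 to 57, 37 and 48.

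Compared per length, the order of levels in DMSO was HLA-E (76.8 ± 2.27 FPKM), B2M (42.8 ± 10.3), TAP2 (33.4 ± 0.259), TAPBP (18.6 ± 0.728), HLA-C (14.3 ± 0.606), HLA-B (9.45 ± 1.45), TAP1 (7.18 ± 0.194) and NLRC5 (0.613 ± 0.0333; SD, n = 3). B2M and TAP2 were not separated in DMSO, since B2M ran from 30.9 to 49.5 FPKM. After DSF/Cu, HLA-C (17.6 ± 1.48 FPKM) overlapped TAPBP (15.9 ± 0.0999), and B2M was at 55.9 ± 2.61 and TAP2 at 22.5 ± 0.347. The FPKM of B2M implied a length of 6040 bases, near the 6079 exonic bases of all its annotated transcripts together, and its level per length rests on that length. The other genes were alike, with 6426 against 6390 bases in TAP2 and 3034 against 3051 in HLA-B. This order, and the size of an FPKM ratio between genes, thus rest on the annotated lengths.

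The other ratios compared the parts of a class I complex in each library. B2M to the sum of heavy chains, by FPKM, was 0.480, 0.496 and 0.303 in DMSO and 0.553, 0.562 and 0.587 after DSF/Cu. The groups did not overlap, and DMSO replicate 3 was again low. TAPBP to the heavy chains was 0.194, 0.181 and 0.180 in DMSO and 0.149, 0.162 and 0.176 after DSF/Cu, lower without overlap. TAP1 to the heavy chains (0.0714 ± 0.00204 and 0.0665 ± 0.00487, SD, n = 3, exact permutation p = 0.3) and HLA-B to HLA-C (0.666 ± 0.125 and 0.623 ± 0.105, exact permutation p = 0.7) overlapped between groups. The sign for HLA-B to HLA-C turned without DMSO replicate 2 (0.0440) or DSF/Cu replicate 2 (0.0154). In 7 of 11 ratios the groups did not overlap, each at the smallest p possible, and HLA-E to HLA-F had no ratio because HLA-F had 0 counts in 2 libraries. Among single tested genes, 51.2% did not overlap, and no such share was computed for ratios of other genes. Several ratios share a gene or the heavy chain sum, so they are not separate results.

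**Figure D2:**
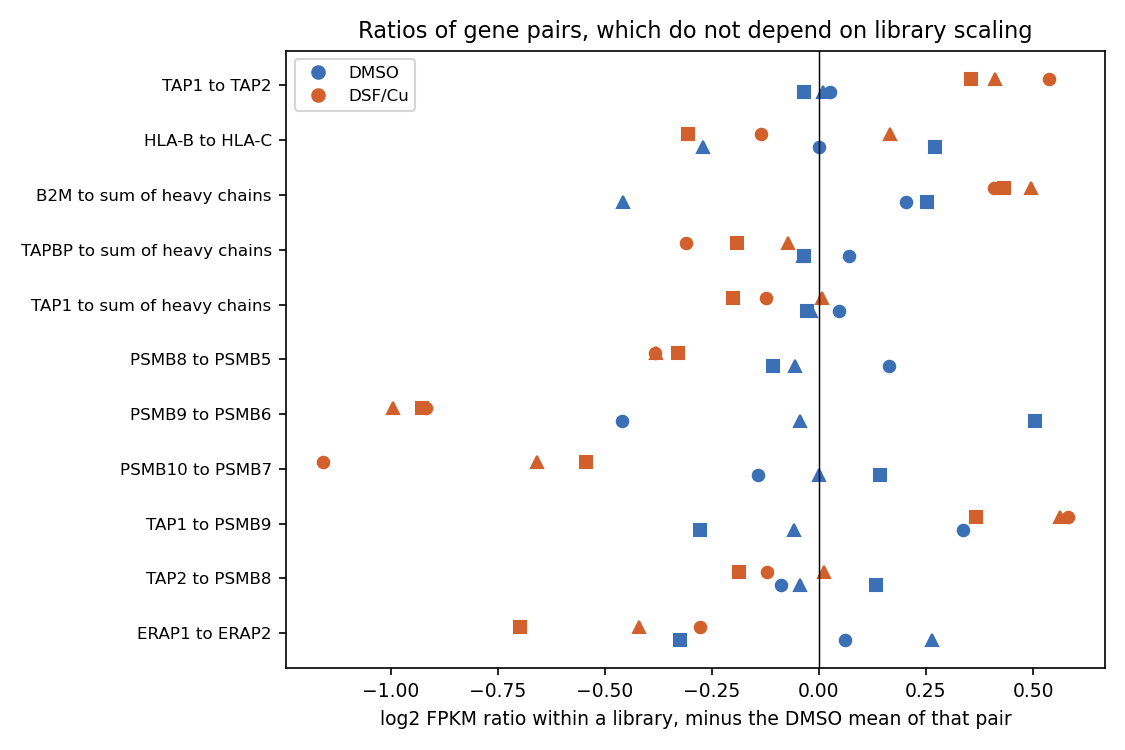
Ratios of 2 genes within a library, as log2 of FPKM minus the DMSO mean of that pair, with DMSO in blue and DSF/Cu in orange (n = 3 libraries each, circles, squares and triangles for replicates 1, 2 and 3). TAP1 to TAP2 is higher after DSF/Cu by 0.43, and the 3 immunoproteasome ratios (PSMB8 to PSMB5, PSMB9 to PSMB6 and PSMB10 to PSMB7) are lower by 0.36, 0.95 and 0.79.

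Proteasomes that supply class I peptides can carry the interferon-inducible catalytic subunits PSMB8, PSMB9 and PSMB10 in place of PSMB5, PSMB6 and PSMB7. Of the 3 constitutive subunits, 2 rose and none fell (median log2 change 0.47), with 1 higher under total-count scaling. The shares of all tested genes to set beside this and the list counts below are 18.5% called higher and 16.8% lower. PSMB7 rose by 0.87 ± 0.06 (log2, SE), from 283 ± 3.99 to 518 ± 31.5 CPM. PSMB6 rose by 0.47 ± 0.11, called in 8 of 15 alternatives, and PSMB5 was at 0.07 ± 0.07, not called and below 0 under total-count scaling (-0.121). Of 8 genes in the list of immunoproteasome subunits and activators, 2 rose and 1 fell (median -0.10, where all genes had 0.00227), against 2 higher and 4 lower with total-count scaling.

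PSMB8 held 37.7, 32.4 and 36.3 CPM in DMSO and 29.6, 30.1 and 26.7 after DSF/Cu. It fell by 0.30 ± 0.09 (edgeR adjusted p = 0.0417), a call that held in 8 of 15 alternatives; of the leave-one-out fits it held in that without DMSO replicate 2. PSMB9 was low, with 3.38, 4.95 and 4.36 CPM in DMSO and 3.14, 3.12 and 2.87 after DSF/Cu, and was not called (-0.47 ± 0.19, edgeR adjusted p = 0.0932), though 6 of 15 alternatives called it lower, total-count scaling among them (-0.660, adjusted p = 0.0276). PSMB10 was not called either, with 4.91, 6.13 and 5.46 CPM in DMSO and 4.79, 6.86 and 6.00 after DSF/Cu, and its sign was negative under total-count scaling (-0.0855). The members that rose were PSME4, the PA200 activator (from 102 ± 13.2 to 177 ± 12.8 CPM), and POMP, the proteasome assembly chaperone (from 131 ± 17.7 to 207 ± 3.70 CPM). The subunits of the PA28 activator gave -0.05 ± 0.08 (PSME1), -0.16 ± 0.09 (PSME2) and -0.32 ± 0.48 (PSME3), none called. Under total-count scaling PSME1 (-0.235, edgeR adjusted p = 0.0491) and PSME2 (-0.342, 0.0203) were called lower. PSME3 had 330 CPM in DMSO replicate 3 against 115 and 131 in the other DMSO libraries, and without that library its change was 0.315.

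The ratio of each inducible subunit to its constitutive counterpart was lower after DSF/Cu. PSMB10 itself did not fall (log2 change 0.10, not called), whereas PSMB7 rose by 0.87 and PSMB6 by 0.47. PSMB8 to PSMB5 went from 0.112 ± 0.0114 to 0.0867 ± 0.00185 (FPKM ratio, SD, n = 3), PSMB9 to PSMB6 from 0.0123 ± 0.00415 to 0.00615 ± 0.000177 and PSMB10 to PSMB7 from 0.0213 ± 0.00210 to 0.0125 ± 0.00264. None of the 3 ratios overlapped between groups (exact permutation p = 0.1 each, 0.157 adjusted). TAP1 to PSMB9, which lie on opposite strands, went from 6.49 ± 1.43 to 9.08 ± 0.729 without overlap between groups. TAP2 to PSMB8 gave 3.67 ± 0.304 and 3.43 ± 0.243, with overlap (exact permutation p = 0.4).

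The loading and folding list covers the chaperones of the endoplasmic reticulum that handle new heavy chains. All 12 were tested, 3 rose and 3 fell, against 18.5% higher and 16.8% lower of all genes. The median log2 change was -0.04 (2 higher and 4 lower with total-count scaling). CALR, calreticulin of the loading complex, rose from 1458 ± 15.2 to 2032 ± 149 CPM. PDIA3, the isomerase bound to tapasin, rose from 491 ± 16.4 to 609 ± 53.4 CPM (called in 8 of 15 alternatives). HSPA5, the general chaperone BiP, held 1294, 1382 and 1372 CPM in DMSO and 7604, 7102 and 6634 after DSF/Cu. GANAB and PRKCSH, the subunits of glucosidase II that trims heavy chain glycans before calreticulin binds, fell by 0.50 ± 0.04 and 0.38 ± 0.05 (log2, SE). UGGT1, which reglucosylates unfolded chains, fell by 0.32 ± 0.08 and was called in 11 of 15 alternatives. CALR, HSPA5, GANAB and PRKCSH were called in the same direction in all 15. Calnexin (CANX) was at 1297, 714 and 1355 CPM in DMSO and 1760, 1708 and 1674 after DSF/Cu and was not called (0.61 ± 0.23, edgeR adjusted p = 0.0807), with DMSO replicate 2 low. Without that library the change was 0.366 and was called (adjusted p = 0.00555), and the list then had 4 higher and 3 lower, and DESeq2 called it with all libraries (0.624, adjusted p = 0.0412). The trimming aminopeptidases ERAP1 (-0.13 ± 0.06) and ERAP2 (0.32 ± 0.21) were not called, though ERAP1 was called lower with total-count scaling (-0.314, edgeR adjusted p = 0.0106), and their ratio was 10.7 ± 2.14 in DMSO and 7.70 ± 1.11 after DSF/Cu (exact permutation p = 0.2).

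**Figure D3:**
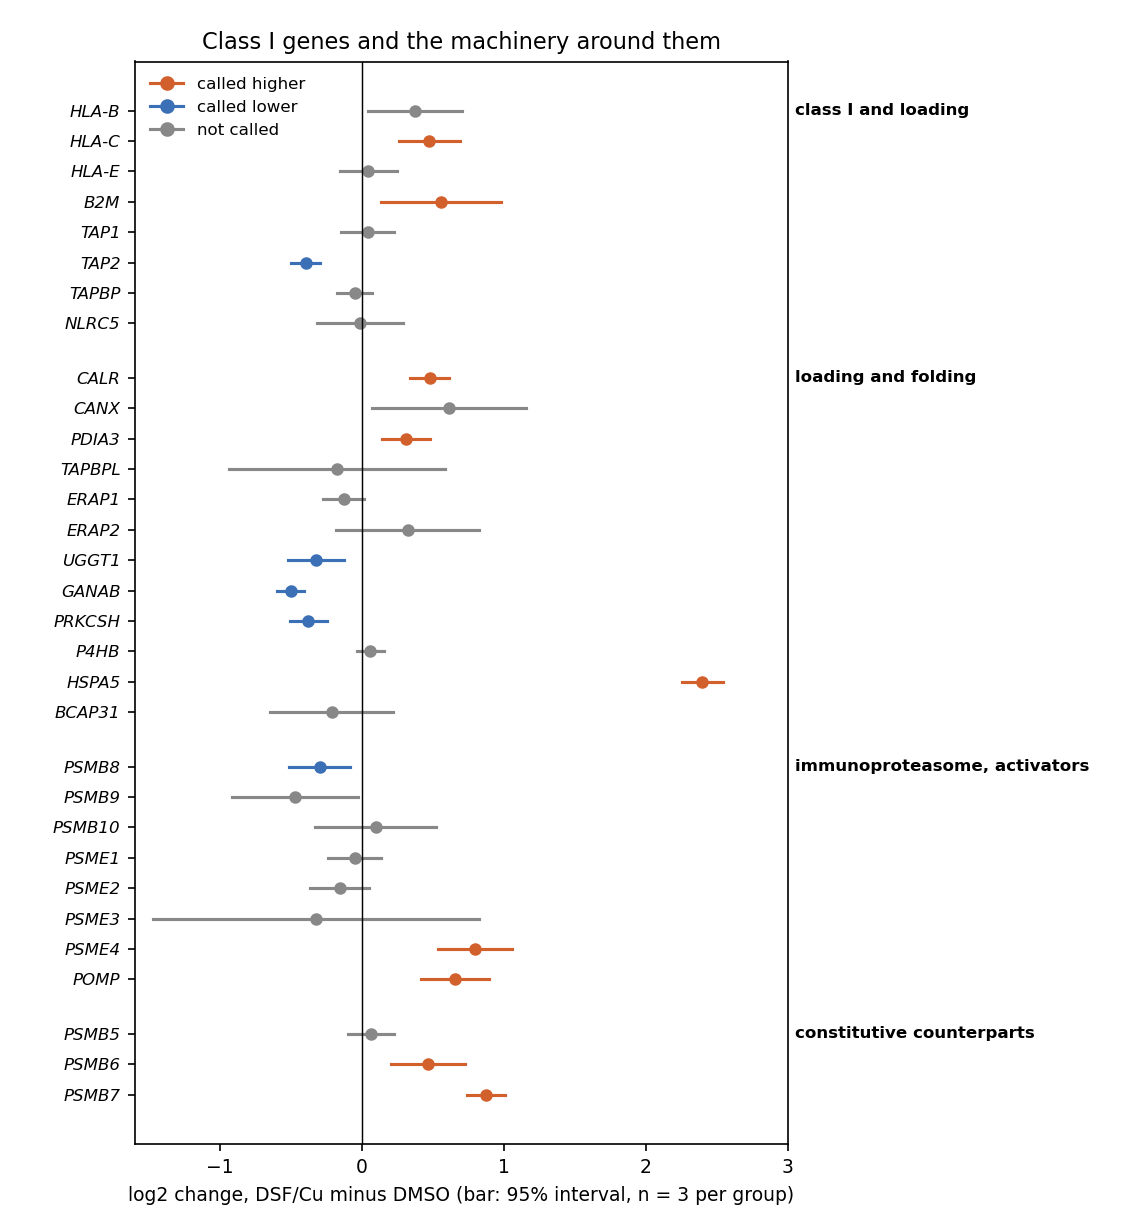
Log2 change after DSF/Cu (horizontal axis) of the class I genes and of the loading, immunoproteasome and constitutive proteasome lists, each point with its 95% interval (n = 3 libraries per group). Orange is called higher, blue called lower and grey not called by edgeR at adjusted p under 0.05. TAP2 lies at -0.40, HLA-C at 0.47, CALR at 0.48, PSMB7 at 0.87 and HSPA5 at 2.40.

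Peptidases outside the endoplasmic reticulum can shorten or destroy peptides. The list of 8 holds mainly cytosolic enzymes. In it 2 rose and 2 fell (median -0.07), against 18.5% higher and 16.8% lower of all genes. With total-count scaling 0 were higher and 4 lower. THOP1, a thimet oligopeptidase, held 122, 128 and 125 CPM in DMSO and 77.1, 73.5 and 80.6 after DSF/Cu. LNPEP, the insulin-regulated aminopeptidase found in endosomes, fell from 107 ± 5.13 to 66.9 ± 7.77 CPM. Both falls were called in all 15 alternatives. NPEPPS (0.28 ± 0.05) and TPP2 (0.26 ± 0.05) rose under TMM, kept the call in 10 of 15 alternatives, and lay below 0 with sum-scaled FPKM (-0.00861 and -0.0299).

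Of 17 tested factors of the class I promoter, 4 rose and 1 fell (median 0.11), against 18.5% higher and 16.8% lower of all genes. With total-count scaling the counts turned to 0 higher and 4 lower. RFX5, a subunit of the RFX complex on the X1 box, held 69.7, 62.3 and 69.4 CPM in DMSO and 51.2, 53.6 and 57.9 after DSF/Cu, and fell by 0.31 ± 0.08 (log2, SE). ATF1, which binds the X2 box, rose by 0.35 ± 0.08, the acetyltransferase EP300 by 0.45 ± 0.10, IRF2 by 0.33 ± 0.09 and NFKB1, the p50 precursor of NF-kB, by 0.22 ± 0.05. None of these 5 calls held in all alternatives; RFX5 held in 11 of 15, ATF1 in 10, EP300 in 9, NFKB1 in 6 and IRF2 in 2, and NFKB1 was below 0 with sum-scaled FPKM (-0.0712).

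For interferon gamma, the main inducer of this pathway, no ligand mRNA was counted (IFNG had 0 counts in all 6 libraries). Of 11 tested receptor and signalling genes, 3 rose and 2 fell (median 0.19), against 18.5% higher and 16.8% lower of all genes. With total-count scaling 2 were higher and 3 lower. JAK1, the kinase shared by interferon receptors, held 101, 107 and 106 CPM in DMSO and 177, 189 and 176 after DSF/Cu. IRF9, the DNA-binding part of ISGF3, rose from 5.58 ± 0.0832 to 9.15 ± 0.594 CPM. Both were called in all 15 alternatives. JAK2, the other kinase of the interferon gamma receptor, fell by 0.61 ± 0.18 (log2, SE, called in 6 of 15), and the inhibitor SOCS3 fell by 0.52 ± 0.14 (11 of 15). STAT3 rose by 0.28 ± 0.07 (8 of 15) and lay at -0.00788 with sum-scaled FPKM.

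Of 19 tested interferon-stimulated genes, 5 rose and 3 fell (median -0.01), against 18.5% higher and 16.8% lower of all genes. With total-count scaling 3 were higher and 3 lower. Of the 4 guanylate-binding protein genes in the list, 3 rose, GBP2 from 23.6 ± 0.409 to 55.9 ± 3.94 CPM, GBP1 from 51.5 ± 1.73 to 87.1 ± 6.72 and GBP5 from 1.51 ± 0.0291 to 6.09 ± 1.23 (SD, n = 3 per group), whereas GBP4 (-0.07 ± 0.36, log2, SE) was not called. Of the 3 antiviral tetratricopeptide genes, 2 fell, IFIT1 from 41.3 ± 1.12 to 23.0 ± 0.786 CPM and IFIT3 from 60.0 ± 1.32 to 46.5 ± 3.46. IFIT2 was not called (29.4 ± 1.34 and 28.8 ± 1.38 CPM). GBP1, GBP2, GBP5, IFIT1 and IFIT3 were called in the same direction in all 15 alternatives. The other calls of this list held in fewer: ISG15 (lower) in 11 of 15, IFI44 (higher) in 3 and SP110 (higher) in 2. CXCL9, a chemokine induced by interferon gamma, had no count in any library.

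Genes of class I turnover include ubiquitin ligases and dislocation machinery that can remove class I heavy chains. Of 13 tested, 6 rose and 1 fell (median 0.07), against 18.5% higher and 16.8% lower of all genes. Under total-count scaling none was called higher and 3 lower, so the balance of this list depends on the scaling. TMEM129, a ligase of heavy chain dislocation, held 26.3, 25.1 and 26.0 CPM in DMSO and 10.4, 13.7 and 17.0 after DSF/Cu, and was called lower in all 15 alternatives. SEL1L, a partner of the ligase SYVN1, rose by 0.30 ± 0.05 (log2, SE), DERL2 by 0.31 ± 0.06 and RNF139 by 0.39 ± 0.08, each called in 10 of 15 alternatives and not under total-count scaling (edgeR) or in the FPKM fits (limma). WWP2 rose by 0.36 ± 0.09 and held in 6 of 15.

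Ligands read by NK and T cells besides class I were tested as well. Of 11, 1 rose and 2 fell (median 0.00187), against 18.5% higher and 16.8% lower of all genes. With total-count scaling 0 were higher and 4 lower. CD47, which restrains phagocytosis, fell from 96.8 ± 2.16 to 62.9 ± 3.96 CPM, and was called in all 15 alternatives. RAET1E, an NKG2D ligand, fell by 0.65 ± 0.17 (log2, SE, called in 9 of 15), and PDCD1LG2, which encodes PD-L2, rose by 0.70 ± 0.19 (5 of 15). RAET1L had 0 counts in DMSO and 0, 4 and 0 after DSF/Cu.

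**Figure D4:**
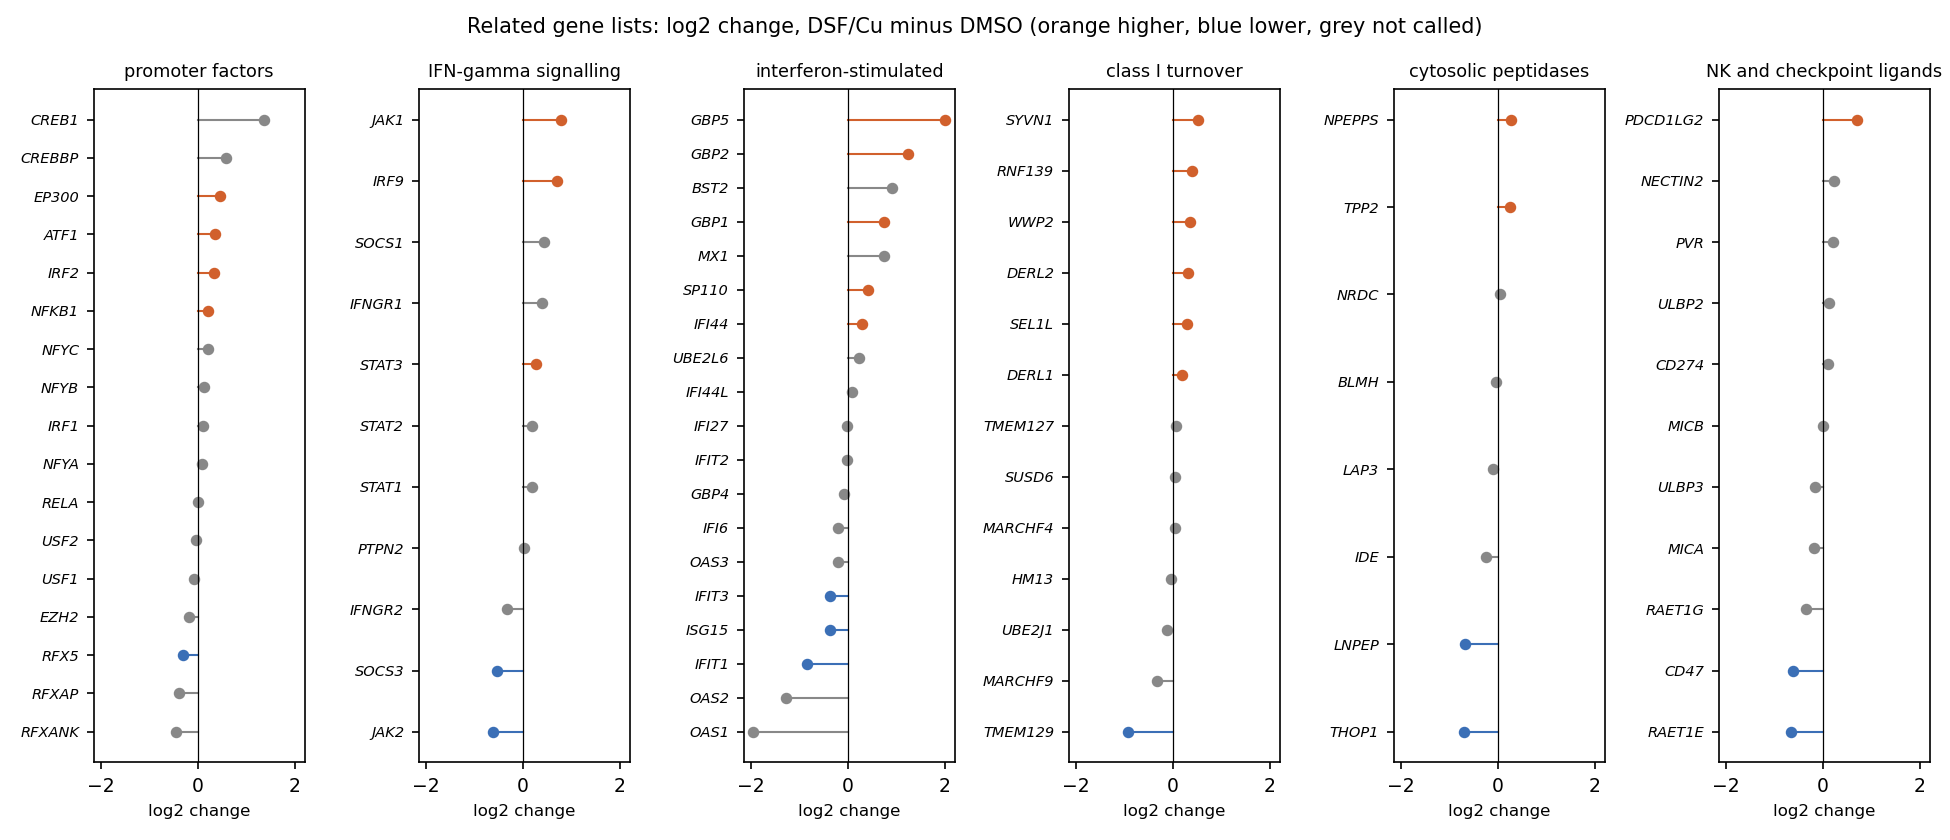
Log2 change after DSF/Cu of each tested gene in 6 related lists, 1 list per panel and 1 gene per line (n = 3 libraries per group). Orange is called higher, blue lower and grey not called. Among interferon-stimulated genes the points run from OAS1 at -1.95, not called, to GBP5 at 2.01.

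Other class I-like heavy chains were low. Of 15 in the table, 7 were tested and 1 was called: HLA-L, a heavy chain pseudogene, rose from 1.34 ± 0.170 to 2.59 ± 0.339 CPM (called in 10 of 15 alternatives). HLA-G had 0 counts in DMSO and 5, 6 and 0 after DSF/Cu, so the groups overlap at 0, and it was not tested. HLA-V, CD1A, CD1B, CD1C and CD1E had none in any library. Class II presentation genes were low or at 0. Of 14 genes, 7 were tested and 1 rose, the protease CTSS, from 5.63 ± 0.339 to 8.60 ± 0.621 CPM (called in 13 of 15). HLA-DRB5, HLA-DQA1 and HLA-DQB1 had 0 counts in all libraries. HLA-DPB1 had 0 counts in DMSO and 6, 2 and 4 after DSF/Cu, HLA-DRB1 had 0 in DMSO and 6, 0 and 0, and HLA-DOA had 0, 0 and 4 in DMSO and none after DSF/Cu.

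From HLA-F to TAPBP, the outermost of these genes on chromosome 6, there were 95 tested protein-coding genes besides the members. Of these, 14 were called higher and 19 lower (median log2 change -0.02), and over all 13421 tested protein-coding genes 2794 were higher and 2833 lower (median -0.03). PSMB8, the tested neighbour of both transporter genes, lies 506 bases from TAP1 and 1978 from TAP2. Across the 6 libraries, the mean standardised level of the 8 tested genes was highest in DSF/Cu replicate 1 (0.71 SD units) and lowest in DMSO replicate 3 (-0.35). The protein-coding genes whose log2 CPM followed that mean most closely were STK11IP (Pearson r = 0.990), POLR2A (0.979), C20orf204 (0.971), MEF2A (0.970) and CHRNB1 (0.970), picked as the highest of all tested genes over 6 libraries and given as a description. None of the 5 was called.

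**Figure D5:**
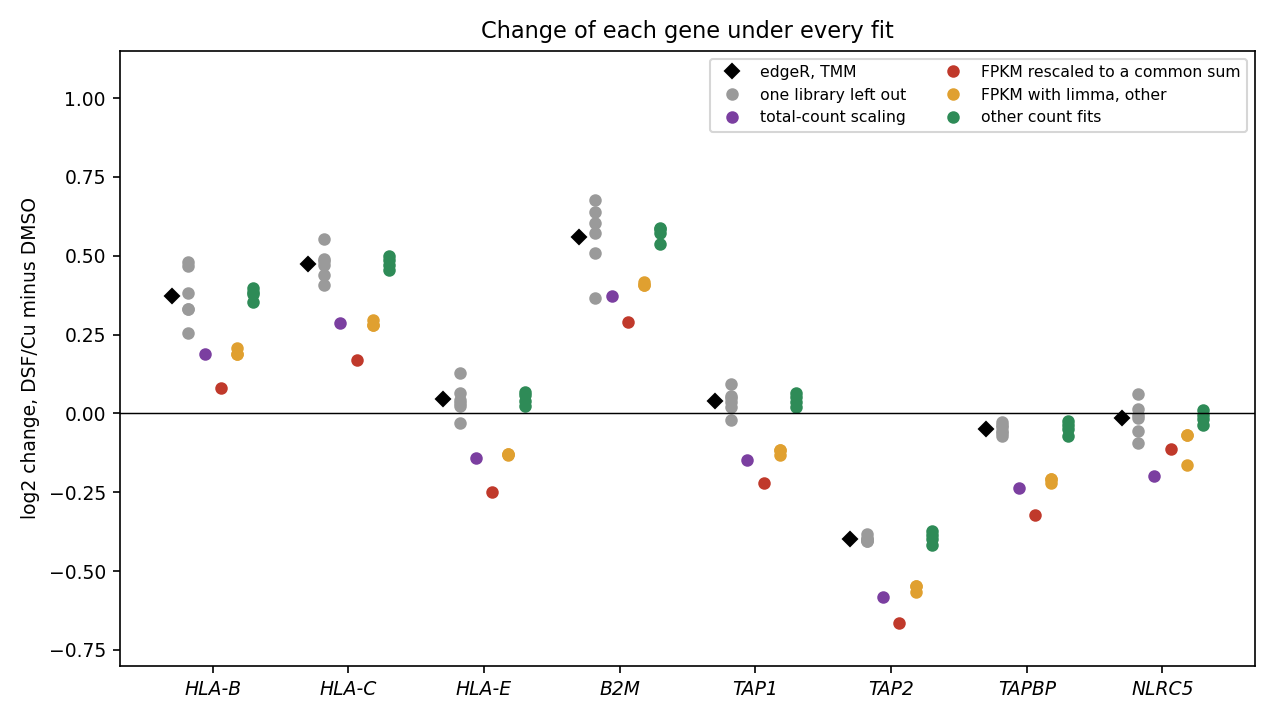
Log2 change of each tested gene (vertical axis) under edgeR with TMM (black diamonds) and under the 15 alternatives (circles, coloured by kind of fit). TAP2 lies between -0.665 and -0.373 in all of them, B2M is above 0 throughout, and the points of HLA-E and TAP1 fall on both sides of 0.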

How the data were processed

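Poly(A) RNA was sequenced as paired-end libraries. The authors deposited whole-number counts and FPKM values per gene for 6 libraries, per the file headers. Columns headed Control were taken as DMSO, since the labels hold no other untreated group. The submitters' processing notes list the tools HISAT2 2.0, StringTie 1.3.0 and Bowtie 0.12.2 with a mouse build, mm8, but the gene IDs are human and the coordinates match GRCh38. For the counter and the strand setting, the sources used here give nothing.

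Genes were kept by filterByExpr (18229 of 58825) and tested on the deposited counts with edgeR 4.0.16 in R 4.3.3, after TMM scaling, by the two-sided quasi-likelihood test with Benjamini-Hochberg adjustment over all tested genes. The SE is the absolute log2 change over the square root of F. FPKM, in which 91.6% of 9019 well-counted genes imply a length within 5% of their exonic length, served for levels between genes and for ratios within a library. The 15 alternatives were total-count scaling, DESeq2 1.42.0, no count filter, a filter of CPM of at least 1 in 3 libraries, a replicate block, leaving out each library, and limma 3.58.1 on log2(FPKM + 1) with genes of mean FPKM of at least 0.1, on log2(FPKM + 0.1), without that filter, and on FPKM set to equal sums (sum-scaled). Libraries of a group differed by a chi-square per degree of freedom of 45.72 to 58.05 and were counted as separate. The scripts were tested on simulated data.

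Text names the 9 members, all tested genes of the proteasome lists, up to 5 called genes per other list by adjusted p, genes at 0 in a whole group, genes of the ratios, the 5 most alike profiles and the nearest tested protein-coding neighbours. Marker genes and uncalled genes named beside a library that stood apart, and GBP4, IFIT2, OAS1, ISG15, IFI44 and SP110, were added after their values were seen. Members and lists were chosen with earlier results of these data known. Results for some genes under this rule are left out.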

Additional observations from a re-analysis of the deposited data

How the results depend on the processing

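With TMM, 2 members were called higher and 1 lower. Higher calls numbered 1 under total-count scaling, without a count filter and in the FPKM fits with limma on log2(FPKM + 1), log2(FPKM + 0.1) and without a filter, 0 with sum-scaled FPKM, and 1 to 2 over the leave-one-out fits, being 1 without DMSO replicate 1 or without any of the 3 DSF/Cu replicates. Lower calls numbered 2 under total-count scaling and in those 3 FPKM fits, 4 with sum-scaled FPKM, and 1 in every leave-one-out fit. Over all genes, 3365 were higher and 3059 lower; the higher calls were 2356 under total-count scaling, 1807 with sum-scaled FPKM and 2235 without the FPKM filter, and the lower calls 4856, 5862 with sum-scaled FPKM, 4635 with log2(FPKM + 1) and 4614 with log2(FPKM + 0.1). Leaving out 1 library gave 2786 to 2953 higher and 2284 to 2550 lower, and DESeq2 gave 4364 and 3952. Replicate numbers share no stated source, and same-numbered libraries did not deviate together (r = 0.0222, -0.00238 and 0.0469). With the replicate block, 2 members stayed higher and 1 lower, with 2692 and 2451 genes called in all.

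Signs turned for HLA-E (total counts -0.142, log2(FPKM + 1) -0.130, log2(FPKM + 0.1) -0.132, rescaled -0.248, no FPKM filter -0.130, without DSF/Cu replicate 1 -0.0300, leave-one-out range -0.0300 to 0.127), for TAP1 (-0.147, -0.117, -0.133, -0.222, -0.117 and -0.0214 in the same order, leave-one-out up to 0.0927) and for NLRC5 (CPM filter 0.00940, without DMSO replicate 1 0.0130, without DSF/Cu replicate 2 0.0613, leave-one-out from -0.0946). HLA-B to HLA-C turned without DMSO replicate 2 (0.0440) or DSF/Cu replicate 2 (0.0154), from -0.227. PSMB10 turned under total counts (-0.0855), without DSF/Cu replicate 2 (-0.0253, up to 0.227 in other leave-one-out fits) and in the FPKM fits (-0.0625, -0.0841, -0.151 and -0.0625), as did PSMB5 (-0.121 under total counts, then -0.104, -0.106, -0.223 and -0.104). PSME1 was 0.0115 without DMSO replicate 2 (lowest -0.107) and PSME3 0.315 without DMSO replicate 3 (lowest -0.747). With sum-scaled FPKM, TPP2 (-0.0299), NPEPPS (-0.00861), NFKB1 (-0.0712), STAT3 (-0.00788), IFI44 (-0.00324) and DERL1 (-0.0922) turned. CD274 turned under total counts (-0.0643) and in the FPKM fits (-0.0194, -0.0146, -0.118 and -0.0194) and ran from -0.346 to 0.533 over the leave-one-out fits, as IFIT2 did from -0.0668 to 0.00688, GBP4 from -0.277 to 0.351 and CD68 from -0.316 to 0.0993. CD44 turned with sum-scaled FPKM (-0.0859). The causes of these shifts were not tested. Over all alternatives, 88 of the members' single values kept direction and side of the threshold, 11 lost their call, 6 gained 1 and 15 turned.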

Other observations

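CREB1, a factor of the X2 box, had 19.1, 15.1 and 17.2 CPM in DMSO and 56.8, 16.0 and 59.4 after DSF/Cu, with DSF/Cu replicate 2 at the DMSO level. It was not called (log2 change 1.36 ± 0.46, SE, edgeR adjusted p = 0.0603), but was called without DSF/Cu replicate 2 (1.76, adjusted p = 0.00105) and with DESeq2 (1.37, adjusted p = 0.0318). CD274, which encodes PD-L1, stood at 10.8 CPM in DMSO replicate 1 and at 53.3 and 54.6 in the other DMSO libraries, and at 13.4 CPM in DSF/Cu replicate 1 against 55.5 and 58.8. In both groups replicate 1 was low, and the gene was not called (log2 change 0.11, edgeR adjusted p = 0.928). Both genes were chosen after their values were seen.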
